A study of Rattus norvegicus with 4 samples.

Results

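Endothelial cells line blood and lymphatic vessels. They were studied here in 2 of the 4 droplet libraries of a single-cell RNA sequencing series on Sprague Dawley rat sciatic nerve and dorsal root ganglion. The deposited values were counts of unique molecular identifiers (UMIs, 1 per captured transcript). A cell counted as endothelial if its barcode ended in 3 or 4, it had 500 or more genes with a UMI, no more than 20% of its UMIs were mitochondrial, and it carried at least 2 of Cdh5, Flt1, Kdr, Egfl7, Cldn5 and Vwf. These 6 genes also had to sum to at least 4 UMIs and 8 per 10000 UMIs, and to exceed both the sum of Dcn, Lum and Pdgfra and the sum of Rgs5 and Acta2. The rule chose 301 of the 14921 cells that passed the gene and mitochondrial limits in the 2 libraries, out of 33175 such cells and 41444 barcodes in the series. Of these, 223 came from the library with barcode suffix 3 (library 3) and 78 from the library with suffix 4 (library 4).

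The labels give 4 groups with 1 library each: sciatic nerve or dorsal root ganglion taken on postnatal day 1, and the same tissues at 8 weeks, all from Sprague Dawley rats, with the sex not determined. No genetic change or treatment is named for any group. Whether animals were pooled is not given in the sources used here, and a Schwann cell culture protocol stands in the labels of every sample without saying whether the sequenced cells had been cultured. Nothing in the files or labels used here ties a suffix to a tissue or an age, so neither library was assigned to a group. Every difference below is one between 2 libraries, in which age, tissue, preparation and depth cannot be told apart. With 1 library per group no test was possible and no p-value is given.

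Endothelial cells form a sheet sealed by junctions and shape what passes between blood and tissue. In peripheral nerve, the capillaries inside the fascicle carry tight junctions and solute transporters and form the blood-nerve barrier, whereas vessels of ganglia and of the outer nerve sheath are more permeable and can carry the diaphragm protein Plvap. Capillaries of muscle, heart and fat take up fatty acids through Gpihbp1, Fabp4 and their relatives. Arterial, venous and lymphatic endothelium are told apart by such genes as Gja4 and Sox17, Nr2f2 and Selp, and Prox1 and Lyve1.

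The libraries differed in depth, and this bears on every contrast. Members had a median of 4987 UMIs in library 3 (1052 to 30051) and 24531 in library 4 (976 to 131785), while all cells that passed the limits had medians of 4639 and 7554.5. Their summed UMIs were 1530237 and 2498908, and the libraries as a whole held 97572003 and 82252902. Members made up 3.45% of such cells in library 3 (95% exact binomial interval 3.01% to 3.92%) and 0.923% in library 4 (0.730% to 1.15%). Intervals here and below cover counting error only. In all, 191 barcode sequences occurred in more than 1 library. Among them were 3 members of library 3 and 0 of library 4, and no shared sequence was endothelial in both libraries.

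The 6 genes of the rule chose the members, so their levels are a description. Their sum had a median of 17 UMIs per member in library 3 and 86 in library 4. Of the members, 15 and 4 lay just inside the threshold with a sum of 4 or 5 UMIs, and 5 and 1 cells lay just outside it with a sum of 3. A further 11 and 0 cells failed the limit per 10000, and 8 and 3 cells failed against the fibroblast or mural sums. Levels are given as CPM, the summed UMIs of a gene in the members of a library, scaled to a common total of 1000000 UMIs. Cdh5, the cadherin of endothelial junctions, stood at 625 CPM in library 3 and 1032 CPM in library 4. Flt1 and Kdr, receptors for vascular endothelial growth factor, stood at 746 and 799 CPM in library 3 and at 517 and 659 CPM in library 4. Egfl7, a secreted endothelial protein, stood at 317 and 175 CPM. In the other cells of each library all 4 lay between 1.05 and 6.68 CPM.

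Endothelial markers outside the rule were also far higher in members than in the other cells of both libraries. Tie1, a receptor tyrosine kinase of the angiopoietin pathway, had 237 CPM in members of library 3 against 0.635 CPM in its other cells, and 249 against 0.946 CPM in library 4. Erg, an endothelial transcription factor, had 158 against 0.729 CPM and 170 against 0.386 CPM. Emcn, a sialomucin of the vessel surface, was detected in 211 of 223 and 77 of 78 members. Robo4 gave only 1 and 2 UMIs. Pecam1 was not matched in the gene table and is not analysed here. Of genes with at least 100 UMIs in members, 35.7% in library 3 and 17.8% in library 4 were at least 2-fold above the other cells with an interval off 0. The leading genes outside the rule were Ptprb (a phosphatase that restrains Tie2), Cyyr1, Sox17, Plvap and Acer2 in library 3, and Ushbp1, Cyyr1, Adgrl4 (an adhesion receptor of sprouting vessels), Myct1 and Gpihbp1 in library 4. Of the 50 leading genes of each library, 21 were shared, or 42% of each list. Each list was drawn only from genes with at least 100 UMIs in members of its own library, 2079 and 3455 genes. The overlap therefore cannot be read apart from the unequal counts.

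Markers of other cell types were present and moved with the library. The 12 neuron markers summed to 1921 CPM in members of library 3 and 74.4 CPM in library 4. In the other cells they summed to 24596 and 180 CPM, and 10 of the 11 measured were lower in members of library 4. In 63 members of library 3 and 0 of library 4 the neuron sum reached the endothelial sum. The 8 macrophage markers summed to 17.6 and 16.8 CPM, with Cd163, C1qa, C1qb and Csf1r at 0 UMIs in library 3. The 4 T or NK cell markers were all at 0 in library 3, and in library 4 all but Nkg7 were. The 12 Schwann cell markers summed to 451 and 906 CPM, with Ncmap at 0 in both and Cdh19 at 0 in library 3, against 2292 and 11764 CPM in the other cells. The 5 fibroblast markers outside the rule summed to 386 CPM in members of library 3 and 1798 CPM in library 4, against 3536 and 17573 CPM in the other cells. Of the 4 measured in members, the collagens Col1a1 and Col3a1 were higher in library 4 and Mfap5 and Pi16 were lower, with 91.9% of the Mfap5 UMIs of library 3 in 1 cell. The 2 neutrophil markers summed to 43.8 and 2.0 CPM, against 459 and 51.8 CPM in the other cells, and both were lower. In library 3, 1 cell held 70.8% of the 24 S100a9 UMIs. For S100a8, 1 cell held 87.5% of the 32 UMIs of the arterial-marker members described below. The part of these other markers in the contrasts below was not tested.

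Markers of mural cells, the pericytes and smooth muscle cells that wrap vessels, were higher in members of library 4. The 8 mural markers outside the rule summed to 140 CPM in library 3, with Notch3 at 0, and to 951 CPM in library 4. All 6 measured were higher in library 4, among them Kcnj8 (26.8 and 268 CPM), Pdgfrb (28.8 and 210 CPM) and Des (8.50 and 121 CPM). Members were called mural-marked, after their values had been seen, if the UMIs of these 8 genes with Rgs5 and Acta2 reached 0.25 of the endothelial sum. This held for 11 of 223 members of library 3 (4.93%) and 35 of 78 of library 4 (44.9%). In library 4 the mural-marked members had a median of 41284 UMIs against 12890 in the rest and gave 62.8% of all member UMIs. Against the rest they were at least 2-fold higher in 7.71% of the measured genes and lower in 1.17%, with Steap4 at 229 against 6.46 CPM and Col6a2 at 403 against 16.1 CPM. Whether a droplet held 1 cell or 2 was not tested, and the leading lists and genes are also given without these members, which leaves 212 and 43 cells.

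**Figure D1:**
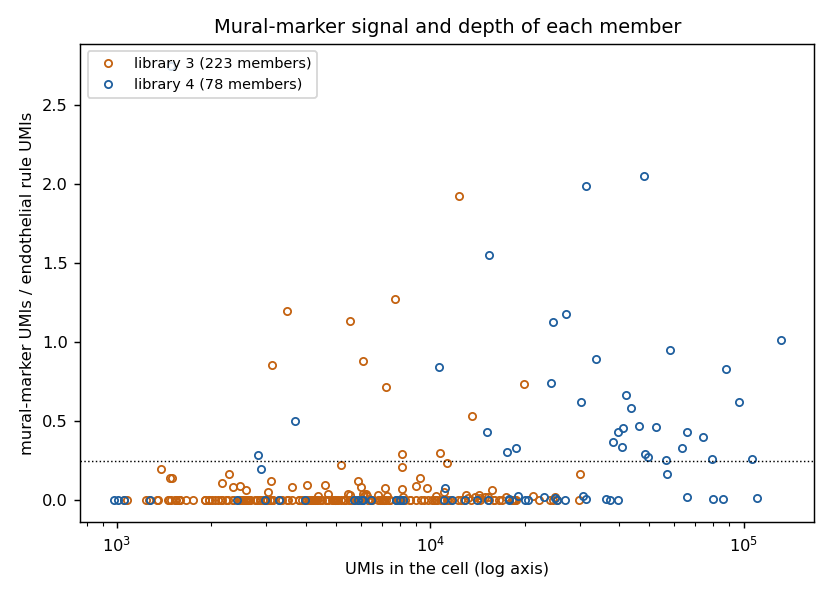
Mural-marker UMIs of each member divided by its endothelial rule UMIs (vertical axis) against its UMIs (horizontal log axis). Each circle is 1 cell, the colour gives the library and the dotted line marks 0.25. Above the line lie 11 of 223 members of library 3 and 35 of 78 of library 4, the latter mostly deep cells.

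Haemoglobin, the product of red cells, also differed. Its genes made up 7.06% of member UMIs in library 3 and 2.06% in library 4, against 0.609% and 0.990% in the other cells. Over 10% of the UMIs came from haemoglobin genes in 27 members of library 3 and 7 of library 4. In library 3 these members were led by the red cell enzyme gene Alas2 (239 against 1.62 CPM in the rest). They were lower in 15.6% of the measured genes and higher in 0.409%. The median log2 ratio over all measured genes was -0.67 and that of the pan-endothelial list -0.70. These members were picked by their haemoglobin share, and haemoglobin UMIs count in the total to which every gene is scaled. The lower levels therefore cannot be read apart from that scaling.

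Across all genes the contrast was lopsided toward library 4. A gene was measured if it had at least 20 UMIs in 1 library. It counted as higher or lower if its log2 ratio, library 4 over library 3, was at least 1 or at most -1 with a 95% exact interval off 0. Of 7940 measured genes, 913 were higher (11.5%) and 245 were lower (3.09%) in library 4, and the median over all genes was 0.23. Higher genes thus made up 78.8% of all such genes. The share was 61.7% after centring on the median (588 higher, 365 lower), 59.4% without mural-marked members (437 and 299) and 44.8% with each cell thinned to 2000 UMIs (117 and 144). Thinning also cut the measured genes from 7940 to 2750, so its share does not show depth alone. At a minimum of 5 UMIs the share was 67.1% (1047 and 513), and at 100 UMIs it was 78.6% (272 and 74). The balance of higher and lower genes therefore moved with thinning, scaling, the lower UMI minimum and the mural-marked members. Cells of other types shifted too. In fibroblast-rule cells (1424 and 1154, chosen by Dcn, Lum and Pdgfra) 11.6% of 11867 genes were higher and 7.79% lower, and in mural-rule cells (154 and 59, chosen by Rgs5 and Acta2) 9.04% of 4913 were higher and 8.47% lower.

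**Figure D2:**
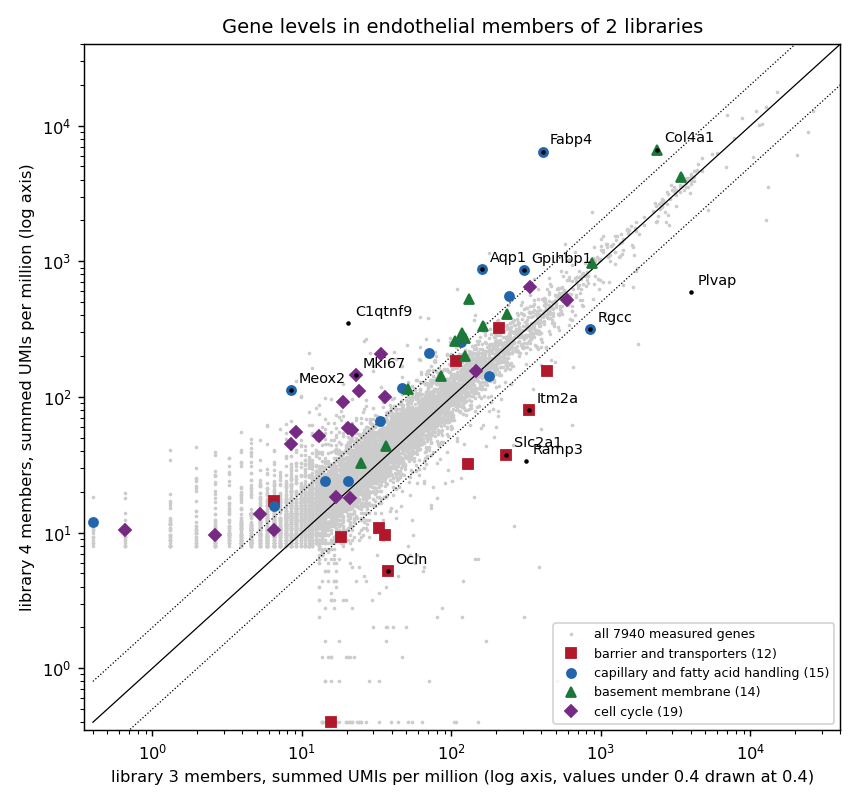
Level of each of 7940 measured genes in members of library 3 (horizontal) and library 4 (vertical), in CPM on log axes. The solid line marks equal levels and the dotted lines a 2-fold ratio. Barrier and transporter genes lie mostly below the lines, and capillary, basement membrane and cell cycle genes mostly on or above them.

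Of 21 measured pan-endothelial genes outside the rule, 1 was higher and 1 lower, beside 11.5% and 3.09% of all genes, with a median log2 ratio of -0.08. Ptprb, at 240 and 480 CPM, was the higher gene (log2 ratio 1.00, interval 0.83 to 1.17; 0.97 without mural-marked members). Clec14a, an adhesion protein of the vessel wall, was the lower one at 489 and 180 CPM (-1.44, -1.61 to -1.27). Emcn (821 and 777 CPM), Eng (412 and 389 CPM), Podxl (216 and 214 CPM) and Tie1 had ratios between -0.08 and 0.07. Ramp2, the partner of the adrenomedullin receptor Calcrl, had 1321 and 1072 CPM (-0.30). Of 30 measured transcription factors, 1 was higher and 1 lower, beside the same 11.5% and 3.09%, with a median of 0.19. Sox18 stood at 99.3 and 95.2 CPM, Epas1 at 527 and 539 CPM, Gata2 at 77.1 and 76.8 CPM and Fli1 at 171 and 194 CPM. The exceptions were Meox2, described below, and Tbx1 (21.6 and 7.60 CPM, log2 ratio -1.50), which was at -0.33 without mural-marked members.

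Genes of the barrier, of tight junctions and of solute transport were lower in library 4. Of 12 measured, 8 were lower and 1 higher, against 3.09% and 11.5% of all genes, and their median log2 ratio was -1.75 (all genes 0.23). Without mural-marked members the median was -2.13 with 9 of 11 lower, and among members of 2000 to 20000 UMIs it was -1.49 with 7 of 10 lower. In fibroblast-rule cells the same list had a median of 0.65, with 1 of 11 lower. Slc2a1, the glucose carrier of barrier endothelium, was at 233 CPM (357 UMIs in 101 of 223 members) in library 3 and at 37.6 CPM (94 UMIs in 42 of 78) in library 4. Its log2 ratio was -2.63 (-2.98 to -2.30), and -2.13 without mural-marked members. In fibroblast-rule cells, where Slc2a1 is not a defining gene, 10.4% and 30.8% of cells had a UMI of it, at median depths of 5750 and 13418 UMIs.

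Amino acid carriers went the same way. Slc3a2, the shared heavy chain of several carriers, was at 434 and 155 CPM (-1.48; -1.38 without mural-marked members), and its partner Slc7a5 at 32.7 and 10.8 CPM (-1.60). Slc38a3, a glutamine carrier, was at 56.9 and 6.0 CPM (-3.24, -4.14 to -2.44). The tight junction gene Ocln was at 37.9 and 5.2 CPM (-2.87) and Lsr, which marks junctions where 3 cells meet, at 35.9 and 9.60 CPM (-1.90). The efflux pump gene Abcg2 was at 130 and 32.0 CPM (-2.02) and Itm2a at 332 and 80.0 CPM (-2.05). Slco1c1, a thyroid hormone carrier of brain endothelium, gave 24 UMIs in 14 members of library 3 and 0 in library 4, a level at least 13.1-fold lower against a floor of 3 UMIs. Slc38a5, listed with the venous genes, gave 33 UMIs in 9 members and 0, at least 18.0-fold lower, with 30.3% of the UMIs in 1 cell. Not all junction genes followed: Tjp1 (108 and 184 CPM, 0.77) and Jam2 (207 and 320 CPM, 0.63) did not reach the 2-fold ratio, and the transferrin receptor Tfrc was the higher gene (6.53 and 17.2 CPM, 1.40). A pair of genes typical of brain barrier endothelium was near the floor in both libraries, Mfsd2a with 1 and 0 UMIs and Slco1a4 with 4 and 0. In libraries 1 and 2, which hold 125 and 620 cells by the same rule, Slco1a4 stood at 186 and 1555 CPM and Slc2a1 at 608 and 718 CPM.

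Plvap, the protein of fenestral and caveolar diaphragms, was at 3995 CPM in library 3 (6113 UMIs in 212 of 223 members) and 595 CPM in library 4 (1488 UMIs in 65 of 78), a log2 ratio of -2.75 (-2.83 to -2.66). The median member had 35.9 and 4.32 Plvap UMIs per 10000. In fibroblast-rule cells, which should lack the gene, 1.62% and 0.780% had a UMI, and their own log2 ratio was -2.16. The members' ratio was -2.74 without mural-marked members and -2.92 among members of 2000 to 20000 UMIs. Libraries 1 and 2 stood between, at 1593 and 1174 CPM. Genes of the caveolar coat moved the other way. Of the 8 measured in this list 4 were higher in library 4, and Plvap was the only lower one. Among all genes 11.5% were higher and 3.09% lower. Within library 4, mural-marked members had 0 of the 8 higher and 0 lower than the rest, beside 7.71% and 1.17% of all genes. The list median of that comparison was -0.11 (all genes 0.05). Cav1, the caveola scaffold, was at 871 and 2295 CPM (1.40, 1.31 to 1.48), Cav2 at 159 and 351 CPM (1.14), Cavin1 at 359 and 737 CPM (1.04) and the membrane-shaping Ehd2 at 77.1 and 215 CPM (1.48). Cavin2 did not differ at this depth (478 and 504 CPM, 0.08, -0.06 to 0.21), and Cavin3 had a ratio of 0.54.

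**Figure D3:**
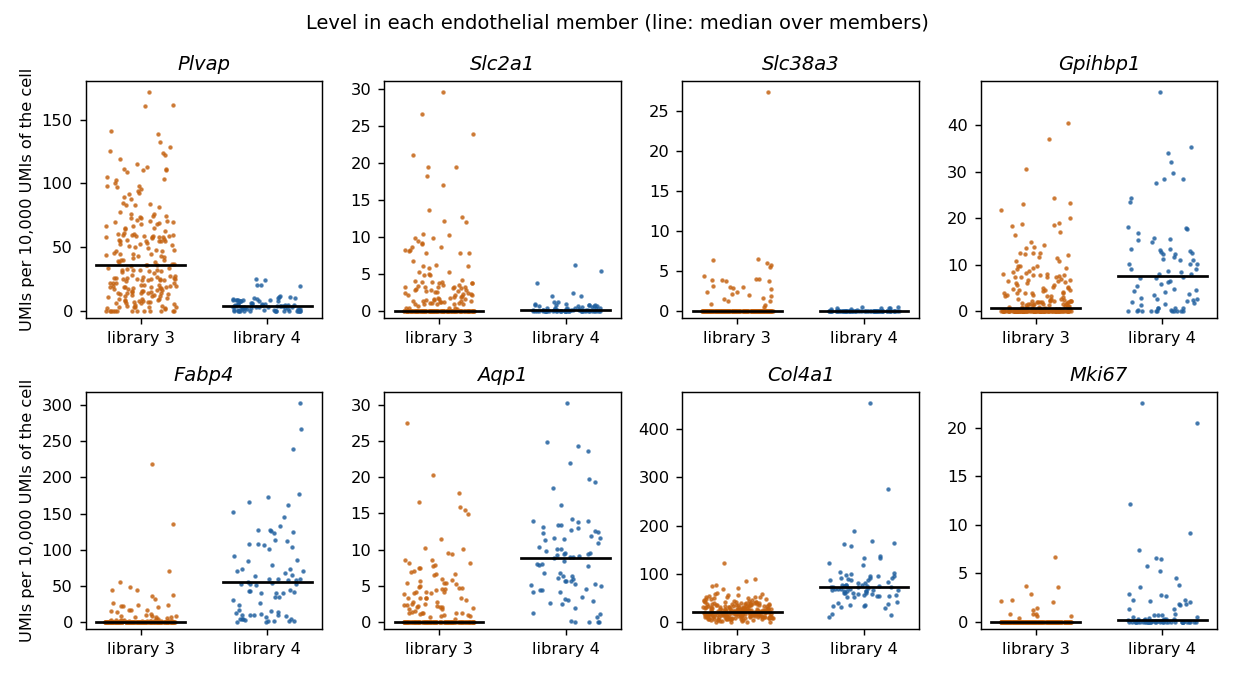
Level of 8 genes in each member, in UMIs of the gene per 10000 UMIs of the cell (vertical), for 223 members of library 3 and 78 of library 4. Points are cells and the black lines are medians over members. The median of Plvap is 35.9 in library 3 and 4.32 in library 4, while that of Fabp4 is 0 and 54.9.

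Genes of fatty acid uptake and of continuous capillaries were higher in library 4. Of 15 measured, 10 were higher and 1 lower, against 11.5% and 3.09% of all genes, with a median log2 ratio of 1.26. Without mural-marked members the median was 1.18 with 8 of 14 higher, and in fibroblast-rule cells it was 0.10 with 1 of 14 higher. Fabp4, a carrier of fatty acids, was at 408 CPM in library 3 (625 UMIs in 51 of 223 members) and 6441 CPM in library 4 (16096 UMIs in 77 of 78), a log2 ratio of 3.98 (3.86 to 4.10). In fibroblast-rule cells 16.8% and 10.3% had a Fabp4 UMI, with a ratio of -3.21, and in mural-rule cells the ratio was 3.19. In library 3, 22.9% of members had a Fabp4 UMI, and the level was 306 CPM in fibroblast-rule cells against 38 CPM in all cells that were not members. Gpihbp1, which holds lipoprotein lipase at the capillary surface, was at 305 and 857 CPM (1.49, 1.34 to 1.64). Aqp1, a water channel of continuous capillaries, was at 161 and 874 CPM (2.44, 2.25 to 2.64) and the lipoprotein receptor Scarb1 at 116 and 256 CPM (1.15). Without mural-marked members Fabp4 was at 4.23, Gpihbp1 at 1.41 and Aqp1 at 2.36.

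Other members of this list varied. Meox2, a transcription factor tied to fatty acid transport in heart endothelium, had 13 UMIs in library 3 and 281 in library 4 (8.50 and 112 CPM, 3.73, 2.93 to 4.65). It was also detected in 51.3% and 82.3% of fibroblast-rule cells. Its partner Tcf15 had a ratio of 1.00, and Fabp5 1.19. Car4, an enzyme of capillary surfaces, gave 0 and 30 UMIs, at least 6.12-fold higher in library 4, but 1 cell held 53.3% of them. Lipoprotein lipase itself (Lpl, 179 and 143 CPM) had a ratio of -0.32, and Cpt1a and Acsl1, enzymes of fatty acid use, had intervals reaching 0.01 and -0.40. Timp4 (1.32) and Angptl4 (1.57) were at 0.58 and 0.55 without mural-marked members. The one lower gene was Rgcc, a complement-induced cell cycle regulator, at 852 and 315 CPM (-1.43, -1.56 to -1.30).

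**Figure D4:**
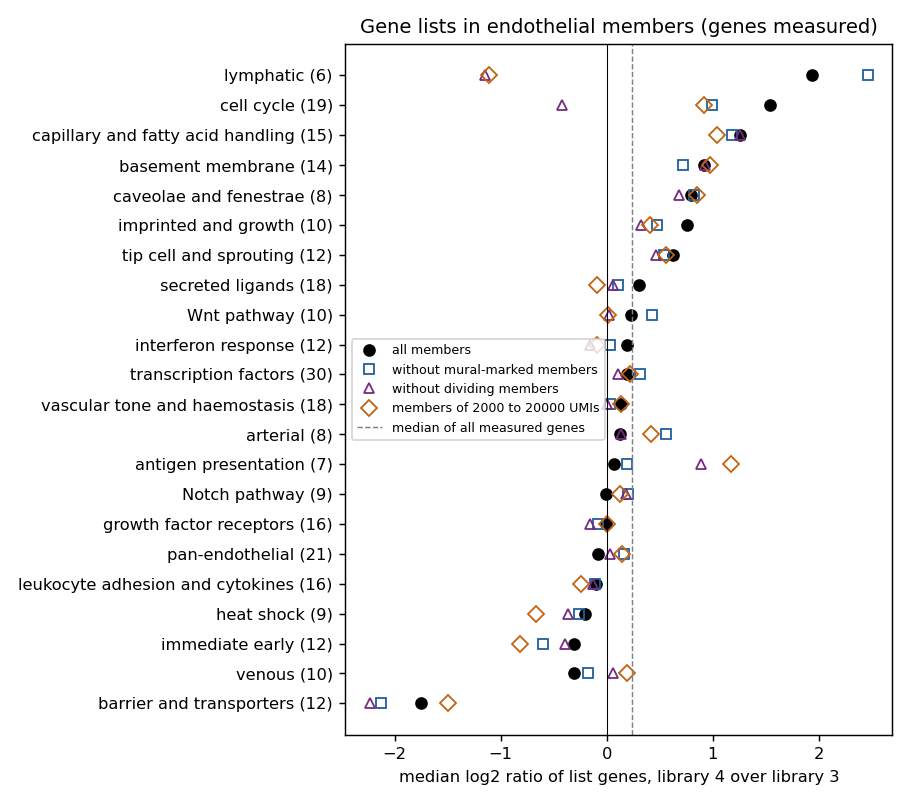
Median log2 ratio, library 4 over library 3, of the measured genes of each of 22 lists (horizontal), with the number measured from all members in brackets. Filled circles use all members and open symbols leave out mural-marked or dividing members or keep members of 2000 to 20000 UMIs. The dashed line is the median of all genes, 0.23, and the barrier list lies at -1.75 while the capillary list lies at 1.26.

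Basement membrane genes were higher in library 4 in 7 of 14 measured cases and lower in 0, beside 11.5% and 3.09% of all genes, with a median of 0.92. The list was higher in other cells as well, with a median of 0.72 and 5 of 14 higher in fibroblast-rule cells. The fibroblast and mural markers given above were also higher in sum in members of library 4, and their part in this result was not tested. Col4a1, a chain of the collagen IV network, was at 2366 CPM in library 3 and 6651 CPM in library 4 (1.49, 1.44 to 1.54), and its partner Col4a2 at 132 and 525 CPM (1.99, 1.78 to 2.21). Col18a1 (117 and 294 CPM, 1.33) and the laminin chain Lama4 (51.6 and 115 CPM, 1.16) went the same way. Without mural-marked members these 4 were at 1.43, 1.91, 1.75 and 1.11. Lamb1 (1.31) and Nid1 (1.05) were at 0.83 and 0.73. Sparc, at 3443 and 4156 CPM, and Sparcl1, at 876 and 972 CPM, had ratios of 0.27 and 0.15.

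Cell cycle genes were higher in library 4, with 13 of 19 measured higher and 0 lower, beside 11.5% and 3.09% of all genes, and a median of 1.54. Mki67, a nuclear protein of cycling cells, had 35 UMIs in 15 members of library 3 and 362 in 43 members of library 4 (22.9 and 145 CPM, 2.66, 2.16 to 3.21). Top2a was at 24.2 and 111 CPM (2.20) and Cenpf, a centromere protein, at 34 and 208 CPM (2.61). The replication genes Pcna (0.09), Mcm2 (0.12) and Mcm6 (-0.22) did not reach the 2-fold ratio. Without mural-marked members Mki67 was at 2.48, Top2a at 1.74 and Cenpf at 2.26, and the list median was 0.99 with 7 of 15 higher. In fibroblast-rule cells the list median was 0.27, with 3 of 19 higher.

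A member was called dividing if it had a UMI of at least 3 of 11 mitotic genes. This held for 14 of 223 members of library 3 (6.28%, 3.47% to 10.3%) and 39 of 78 of library 4 (interval of the share 38.5% to 61.5%). Deeper cells meet such a rule more easily, and the dividing members of library 4 had a median of 40944 UMIs against 11050 in the rest. With each cell thinned to 2000 UMIs, which left out 24 and 5 shallower members, the shares were 1.51% (0.312% to 4.34%) and 23.3% (14.2% to 34.6%), so the order held at equal depth. The thinned shares include the mural-marked members. Among members of 2000 to 20000 UMIs, 9 of 191 and 5 of 30 were dividing (4.71% and 16.7%). These 2 shares rest on few dividing cells and are given without intervals. Of the 39 dividing members of library 4, 21 were mural-marked, and without these the share was 18 of 43 (41.9%). Against the other members of library 4, dividing members were higher in 3.38% and lower in 0.853% of the measured genes. Outside the 11 genes they were led by Cenpe (101 against 6.48 CPM), Pttg1 and Cenpw. They also had more Col3a1 (1341 against 562 CPM) and Col1a1 (766 against 178 CPM), both collagens of fibroblasts and mural cells.

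**Figure D5:**
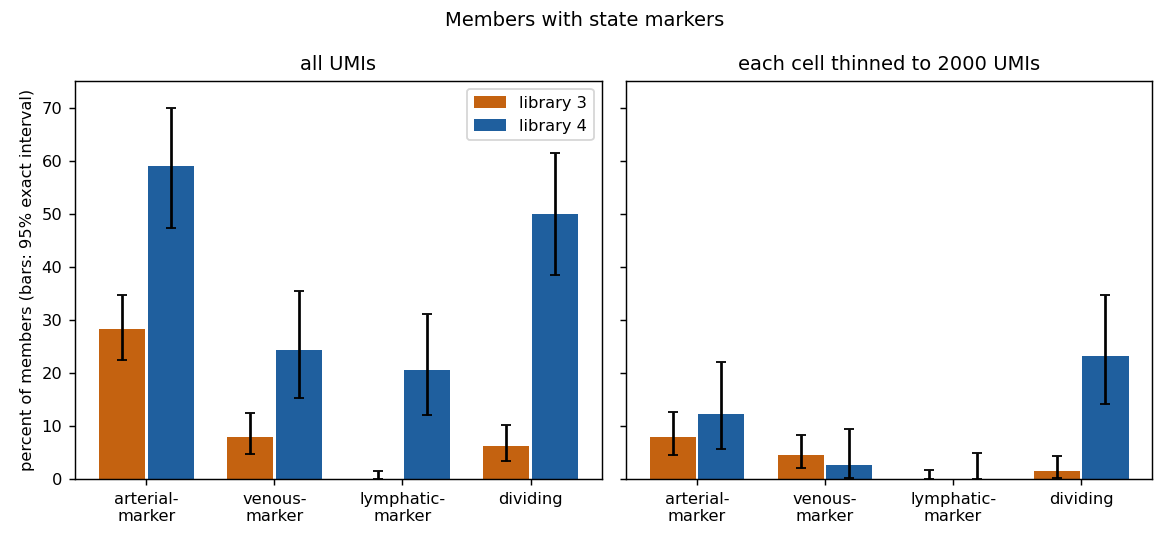
Percent of members that met each marker rule (vertical) in library 3 and library 4, with all UMIs (left) and with each cell thinned to 2000 UMIs (right). Error bars are exact 95% binomial intervals. After thinning the dividing share is 1.51% in library 3 and 23.3% in library 4, while the arterial-marker and venous-marker intervals overlap.

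Of 8 measured arterial genes 1 was higher and 0 lower, and of 10 venous genes 1 was higher and 2 lower, beside 11.5% and 3.09% of all genes. The higher arterial gene was Jag1, a Notch ligand (22.2 and 54.8 CPM, 1.30), and the arterial median was 0.12. Sox17 (312 and 355 CPM), Efnb2 (195 and 204 CPM) and the Notch ligand Dll4 (125 and 107 CPM) had ratios between -0.22 and 0.18. Among the venous genes Nr2f2, which sets venous identity, was higher (58.2 and 133 CPM, 1.20; 0.70 without mural-marked members), and Selp, a leukocyte adhesion receptor, was lower (26.8 and 12.4 CPM, -1.11; -0.56 without them), beside Slc38a5. Both lower genes lean on single cells of library 3. For Selp, 1 cell held 33.3% of the 33 UMIs of the members outside the arterial-marker group described next. For Slc38a5, 1 cell held 30.3% of the UMIs. Members with at least 2 of 7 arterial markers were 28.3% of library 3 and 59.0% of library 4, but 8.04% (4.67% to 12.7%) and 12.3% (5.80% to 22.1%) after thinning. Those with at least 2 venous markers were 8.07% and 24.4%, and 4.52% and 2.74% after thinning. In library 4, 14 members met both rules at full depth and 0 did after thinning, and the rules do not sort single deep cells into 1 vessel type. In library 3 the 63 arterial-marker members were higher in 1.95% and lower in 1.57% of the measured genes. They had more Cxcl12, a chemokine of arterial endothelium (176 against 52.9 CPM), and Unc5b, a netrin receptor (53.0 against 14.8 CPM). Of 11 measured cell cycle genes 7 were lower, but this rests on few cells. Only 14 members of library 3 were dividing, 2 of them arterial-marker. Among the other 160 members 1 cell held from 20% (Birc5, Cdk1) to 32.3% (Mki67, 31 UMIs) of the UMIs of these 7 genes. The arterial-marker members also had more Mfap5 (200 against 6.35 CPM), but 1 cell held 96.6% of its UMIs. In library 4, where they were higher in 1.72% and lower in 1.10%, Unc5b was at 63.9 against 9.26 CPM.

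In the lymphatic list 1 cell held many of the UMIs. Its median log2 ratio was 1.94 over 6 measured genes with 4 higher, but 1 member of library 4 with 86018 UMIs held 68 of the 74 UMIs of Mmrn1, all 16 of Ccl21, 20 of 46 of Prox1 and 137 of 222 of Lyve1. Its part was smaller in Pdpn (20 of 43), Reln (10 of 27) and Flt4 (16 of 66). It carried 26 UMIs of Cdh5, 30 of Plvap and 11 of Fabp4 and was not mural-marked. Without it the median was 0.41 over 4 genes. Prox1, the regulator of lymphatic identity, was found in 18 members of library 4 and in 0 of 223 of library 3. At the shallower depth of library 3, a limit of 3 counts allows a share of members with a Prox1 UMI of up to 1.35%, which says nothing of cells that express it below detection. It was also found in 1.04% of fibroblast-rule cells of library 4. After thinning, 0 of 73 members of library 4 met the lymphatic rule.

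Among 16 measured growth factor receptors 1 was higher and 1 lower, beside 11.5% and 3.09% of all genes, with a median of -0.01. Igf2r, which clears insulin-like growth factor 2, was higher at 41.2 and 215 CPM (2.39, 2.01 to 2.79; 2.26 without mural-marked members). Ramp3, the second partner of Calcrl, was lower at 314 CPM (129 of 223 members) and 33.6 CPM (22 of 78), a ratio of -3.22 (-3.57 to -2.89) that was -3.59 without mural-marked members. Ramp3 was 0.82 in fibroblast-rule cells, the opposite sign. Calcrl itself was at 100 and 76.8 CPM (-0.38) and its ligand Adm at 314 and 276 CPM (-0.18). Among 18 measured ligands 4 were higher and 1 lower (median 0.30), beside the same shares of all genes. Higher were Edn1, the vasoconstrictor endothelin (8 and 55 UMIs, 2.07), Angpt2, a Tie2 ligand (22.9 and 67.6 CPM, 1.56), Cxcl12 (100 and 206 CPM, 1.04) and Csf1 (8 and 57 UMIs, 2.13). Bmp4 was lower (65.3 and 23.2 CPM, -1.49), and Angpt2 was at 0.04 among members of 2000 to 20000 UMIs.

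Of 12 measured sprouting genes 3 were higher and 0 lower (median 0.62), beside 11.5% and 3.09% of all genes. Esm1 (63.4 and 129 CPM, 1.02) and Pgf (30.7 and 62.4 CPM, 1.02) were the others beside Angpt2, while Apln, a ligand of tip cells, had a ratio of 0.53. Its receptor Aplnr, listed with the venous genes, was at 51.6 and 102 CPM (0.98). In the Notch pathway 1 of 9 was higher (Jag1) with a median of 0.00, and Notch1 was at 318 and 455 CPM (0.52). In the Wnt pathway 2 of 10 were higher, Lrp5 (1.18) and Axin2 (1.04), with a median of 0.23. Lef1, a transcription factor of Wnt signalling, was at 18.3 and 9.20 CPM (-0.99) and at -2.13 without mural-marked members.

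Inflammatory, haemostatic and stress genes are likewise read beside the 11.5% of all genes that were higher and the 3.09% that were lower. Of 16 measured leukocyte adhesion and cytokine genes 3 were higher and 1 lower (median -0.10). Lcn2, an iron-binding acute phase protein, was at 42.5 CPM (45 of 223 members) and 192 CPM (61 of 78), a ratio of 2.18 that was 2.66 without mural-marked members. Cxcl10 (1.03) and Ccl2 (2.37) were at 0.04 and 1.24 without them, and at -0.07 and -0.18 among members of 2000 to 20000 UMIs. Icam1 was at 161 and 130 CPM (-0.32). Antigen presentation genes had 0 of 7 past the fold (median 0.07), with B2m at 1606 and 1324 CPM, against 7464 and 6189 CPM in libraries 1 and 2. The class II genes RT1-Ba and RT1-Bb were at 0 UMIs in both. Immediate early genes, which also answer to dissociation, had 0 of 12 past the fold (median -0.31), with Fos at 2739 and 1943 CPM and Jun at 2801 and 2212 CPM. Of 9 heat shock genes 2 were lower, Hspa1a (1649 and 647 CPM, -1.35) and Hspb1 (1071 and 414 CPM, -1.37), and both were lower in fibroblast-rule cells as well (-1.15 and -2.13). The Hspb1 ratio leans on 1 cell of library 3. That cell held 54.8% of the 1000 Hspb1 UMIs of the arterial-marker members, while the other 160 members held 639. Of 18 genes of vascular tone and haemostasis 2 were higher and 1 lower (median 0.14). Besides Edn1, the angiotensin-converting enzyme Ace was higher (6 and 26 UMIs, 1.41), and Ptgs2, the inducible prostaglandin synthase, was lower at 75.2 and 21.6 CPM (-1.80). The 12 measured interferon response genes had a median of 0.19. Among them Gbp5, a guanylate-binding protein, was higher (6 and 44 UMIs, 2.17), with 47.7% of the UMIs of library 4 in 1 cell.

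Genes of fetal and early postnatal growth were present in both libraries. Igf2, an imprinted growth factor, was at 669 and 1177 CPM (0.81, 0.71 to 0.92) and Mest at 29.4 and 54.0 CPM (0.88). In libraries 1 and 2, Igf2 stood at 55.4 and 12.9 CPM and Mest at 0 and 0.462 CPM. Dlk1 was higher in library 4 (69.3 and 380 CPM, 2.45; 1.39 without mural-marked members) and Ndn lower (58.8 and 23.2 CPM, -1.34). Peg3 had a ratio of 1.05 and was at -0.77 without mural-marked members and -0.14 among members of 2000 to 20000 UMIs. Of 10 measured genes of this list 2 were higher and 1 lower, beside 11.5% and 3.09% of all genes, with a median of 0.76, and the fibroblast-rule cells had a median of 1.02 with 5 of 10 higher.

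Of all genes past the fold, 159 higher and 50 lower passed the rule for naming, which asks for at least 40 UMIs, no cell with over 25% of them and a level at least 2-fold above the other cells. Of the 12 with the largest ratios toward library 4, C1qtnf9, a secreted relative of adiponectin, had 31 UMIs in 10 members of library 3 and 878 in 53 members of library 4 (20.3 and 351 CPM, 4.12, 3.60 to 4.68). Rbp7, a retinol carrier of capillary endothelium, had 14 and 325 UMIs (3.83) and Lrat, which esterifies retinol, 4 and 98 UMIs (3.91). Both retinoid genes were also found in libraries 1 and 2, at 127 and 232 CPM for Rbp7 and at 65.2 and 40.7 CPM for Lrat. Chp2 (3 and 106 UMIs, 4.44), Cxcl9 (2 and 85 UMIs, 4.12), Ablim3 (6 and 137 UMIs, 3.81) and Gucy1b3 (3 and 62 UMIs, 3.66) came next to Fabp4 and Meox2. Steap4, Ednra and Des completed the 12. These 3 were higher in mural-rule cells of library 4 as well (2.56, 1.07 and 1.49), and without mural-marked members they no longer had 20 UMIs in either library, as was the case for Cxcl9 and Gucy1b3. Chp2, C1qtnf9, Rbp7, Lrat and Ablim3 kept ratios of 4.56, 4.18, 4.02, 3.67 and 3.62 without these members.

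Toward library 3 the largest ratio was that of Irx3, a homeobox factor, with 62 UMIs in 46 members against 5 in 5 (40.5 and 2.0 CPM, -4.34, -6.01 to -3.04). Abcb4, a phospholipid transporter, had 46 and 5 UMIs (-3.91), and Slco2a1, a prostaglandin carrier, had 141 and 18.4 CPM (-2.94). Pltp, a phospholipid transfer protein, had 101 and 24.0 CPM (-2.08). Slc38a3, Ramp3, Ocln, Plvap, Slc2a1 and Abcg2, given above, belong to the same 12. Of these 10, all stayed at -2.09 or below without mural-marked members and at -1.35 or below among members of 2000 to 20000 UMIs. The other two, Car2 and LOC103694857, sat mostly in haemoglobin-rich members of library 3, at 144 against 5.66 CPM and 349 against 7.27 CPM in the rest.

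Within library 3 a small group of members had higher levels of the barrier genes. The 17 members with a UMI of Slco1c1 or Slc38a5 (7.62%), a group defined after the values had been seen, were compared with the other 206. Library 4 had 0 of 78 such members, and a limit of 3 counts allows a share with such a UMI of up to 3.85%. Of 9 other measured barrier genes 7 were higher in the 17 (median 1.91, all genes -0.15), against 2.01% of all genes higher and 4.02% lower. The group was not set apart by these genes alone. Of 12 measured cell cycle genes 5 were higher and 0 lower in the 17 (median 1.05). By the rule that deeper cells meet more easily, 3 of the 17 were dividing, against 11 of the other 206. The other 206 members held 196 of the Slc2a1 UMIs of library 3 and the 17 held 161. Slc2a1 was at 729 against 150 CPM (a log2 ratio, the 17 over the others, of 2.28, 1.97 to 2.59), Slc38a3 at 236 against 26.7 CPM (3.14), Pltp at 340 against 61.1 CPM (2.48) and Ocln at 122 against 23.7 CPM (2.37). Cldn5, the main tight junction protein of barrier endothelium and a gene of the rule, was at 1989 against 541 CPM (1.88). Apcdd1, a Wnt target, was at 131 against 24.4 CPM (2.43).

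The same 17 cells had less of the permeable and fatty acid genes. Plvap was at 1051 against 4491 CPM (-2.10, -2.29 to -1.91), Fabp4 at 45.3 against 470 CPM (-3.37), Gpihbp1 at 86.1 against 342 CPM (-1.99) and Igf2 at 63.4 against 771 CPM (-3.60). The 17 had a median of 14942 UMIs against 4877.5 in the rest, and a rule that asks for 1 UMI favours deep cells. With these 17 left out the barrier list had a median of -1.08 between libraries, with 7 of 11 lower, and Slc2a1 and Slc38a3 were still lower, at -1.99 and -2.15.

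A further group of library 3 was likewise defined after its values had been seen. The 35 members with at least 2 UMIs of Fabp4 (15.7%, against 76 of 78 in library 4) shared 1 cell with the 17. They had more Lpl (370 against 135 CPM, 1.46), Aqp1 (280 against 133 CPM, 1.07) and Aplnr (107 against 38.7 CPM, 1.47). Of the UMIs of the 35, 1 cell held 23.5% for Aqp1 and 29.0% for Aplnr. Of 10 measured fatty acid and capillary genes besides Fabp4, 3 were higher and 1 lower (median 0.35), and Gpihbp1 was at 0.30 (-0.03 to 0.62). The 35 had less Slc2a1 (55.3 against 275 CPM, -2.31) and Slc38a3 (3.46 against 69.3 CPM). The Slc38a3 level of the 35 rests on 1 UMI, and its ratio of -2.74 uses the floor of 3 UMIs. Of 11 barrier genes 5 were lower and 0 higher, beside 2.42% of all genes lower and 1.79% higher. They also had more of the fibroblast genes Mfap5 (394 against 7.25 CPM) and Col1a1 (259 against 74.1 CPM), but 1 cell held 99.1% of the Mfap5 UMIs and 84.0% of the Col1a1 UMIs of the 35. The part of that cell in the other values was not tested. Even so their Fabp4 level, 2106 CPM, was below the 6441 CPM of library 4.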

How the data were processed

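The deposited matrix held UMI counts of 25399 genes in 41444 barcodes of 4 pooled libraries, written by Cell Ranger 3.1.0 per the file headers. The submitters' processing notes name CASAVA 1.8, Cell Ranger, Seurat and Rnor_6.0. Aligner settings, strand and treatment of doublets are not given in the sources used here, and no doublet caller was run. Counts were summed over members per library and scaled to a total of 1000000 (CPM). Log2 ratios carry exact 95% intervals from the 2 counts, with a side under 3 UMIs set to 3 (scipy 1.17.1 under Python 3.11.15, with pandas 2.3.3, numpy 2.4.6 and matplotlib 3.10.9). Total UMIs were 97572003 and 82252902 in libraries 3 and 4, and the members' sums of 1530237 and 2498908 set the precision.

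The members and lists were chosen with earlier results of these data known. Of 330 genes in 22 lists 315 were found, and of 79 markers 74. Genes outside the lists were named as the 12 largest ratios per direction, with at least 40 UMIs, at most 25% in 1 cell, a level at least 2-fold above other cells, and without mitochondrial, ribosomal protein and haemoglobin genes, or as the 12 leading genes against other cells. On simulated summed counts, 200 of 200 genes changed by a log2 ratio of 2 were recovered, with 61 false calls among 7214 genes. The simulation had no variation between cells and changed only well-counted genes, by more than the 2-fold limit. It therefore covers counting error only, and not genes led by 1 cell or the unequal depth of the members.

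Alternatives varied the filters, marker sum, scaling, depth, UMI minimum and floor. Those without mural-marked, dividing, haemoglobin-rich or transporter-marked members, without 1 lymphatic-marked cell, and by depth range were added after seeing the data. Values of some single genes are not reported here.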

Additional observations from a re-analysis of the deposited data

How the results depend on the processing

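No paired analysis was possible because each group had 1 library. Where no reason follows from an alternative's construction, the cause was not tested. The genes higher in library 4 numbered 588 after centring, 437 without mural-marked and 394 without dividing members, 324 among members of 2000 to 20000 UMIs, 272 at a minimum of 100 UMIs and 117 after thinning. Those lower numbered 513 at a minimum of 5 UMIs, 74 at 100 and 144 after thinning. The lymphatic median was 0.12 with a marker sum of 8 UMIs, 0.41 without the member richest in Mmrn1, -0.14 at a minimum of 100 UMIs, -0.60 after thinning, -1.07 without the 10% deepest members, -1.11 at 2000 to 20000 UMIs and -1.14 without dividing members. The cell cycle median was 0.91 at 2000 to 20000 UMIs and -0.43 without dividing members, whose rule uses such genes. The caveolar and basement membrane medians were 0.56 and 0.69 after centring, the latter 1.19 after thinning, and the barrier median was -1.08 without transporter-marked members.

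With 1 more gene needed, arterial-marker shares were 5.38% and 25.6% and venous-marker shares 3.14% and 8.97%. Thinning gave arterial shares of 8.04% and 12.3%, venous 4.52% and 2.74%, dividing 1.51% and 23.3%, and a lymphatic share of 0% in library 4. At 2000 to 20000 UMIs, library 4 had 40% arterial, 3.33% lymphatic and 16.7% dividing members. The arterial share of library 3 was 34.8% without members marked by other classes, and its dividing share was 3.0% without the deepest 10%. Single genes changed sign as follows. Mfap5 was at 1.09 without the deepest 10% of members. Peg3 was at -0.77 and Abcc9 at -0.38 without mural-marked members. At 2000 to 20000 UMIs Peg3 was at -0.14, Ccl2 at -0.18, Cxcl10 at -0.069 and Tagln at -1.03, and Tagln was at -1.61 without dividing members. Hbb and 1 entry of Hba-a2 were at 0.019 and 0.027 without haemoglobin-rich members, while the other entry of Hba-a2 kept its sign. The member counts stayed within 1.5 times under all 6 alternatives of the member rule. Library 3 depth limits single genes below 20 UMIs.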
